A study of Rattus norvegicus with 9 samples.

Results

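The transcripts of 10 genes that set vascular tone in the liver were examined in bulk RNA-seq of rat livers, chosen by gene symbol from the 32883 genes of the expression table. They were the nitric oxide synthases *Nos2* and *Nos3*, the endothelin ligand *Edn1* with its receptors *Ednra* and *Ednrb*, the angiotensin genes *Agt*, *Ace* and *Agtr1a*, the prostanoid enzyme *Ptgs2* and the vasodilator peptide *Adm*. All 10 were found and all 10 passed the filter on low counts that left 14089 genes for testing. Gene positions are given as in the deposited table, in the rat build rn6 named in the submitters' processing notes. A member that is near 0 in one group passed that filter through the groups in which it is high.

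Livers came from male Sprague-Dawley rats aged 8 to 11 weeks in 3 groups, each with 3 libraries that the labels call biological replicates. Normal rats had no ligation, no lipopolysaccharide (LPS) and no circuit. Acute-on-chronic liver failure (ACLF) was modelled by 21 days of bile duct ligation followed by LPS at 0.25 mg/kg, and both ACLF groups were connected to an extracorporeal circuit for 2 h, starting 1 h after LPS, under heparin and isoflurane. In the empty group the circuit held neither cells nor adsorbent beads. In the UTOpiA group it held a granulocyte and monocyte adsorption column together with alginate-encapsulated hepatocyte-like cells made from gene-edited human induced pluripotent stem cells. ACLF livers were taken 24 h after LPS from rats still alive at that time. Ligation, LPS and circuit therefore cannot be told apart in any comparison with normal livers, and the column and the cells cannot be told apart in the comparison of UTOpiA with empty.

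Portal pressure depends on blood flow into the liver and on the resistance of its sinusoids. Endothelin-1 and angiotensin II contract the stellate cells around the sinusoids, whereas nitric oxide, prostacyclin and adrenomedullin relax vessels. Endothelial nitric oxide synthase is known for keeping sinusoidal tone low in healthy liver, and the inducible synthase is known for making large amounts of nitric oxide after endotoxin. The angiotensin system begins with angiotensinogen, a plasma protein made by hepatocytes, and angiotensin-converting enzyme makes the last cut to the active peptide.

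Between 14241172 and 17321677 reads were counted per library. Fold changes come from edgeR's quasi-likelihood test on counts scaled by TMM, which corrects for a few abundant transcripts taking up the library. A gene was called changed when its change exceeded 2-fold and its p, adjusted by Benjamini-Hochberg across all tested genes, was under 0.05. Levels are given as TPM, transcript abundances that account for gene length and library total but carry no such correction. Over all tested genes the median log2 ratio of mean TPM was 0.55 for empty over normal, -0.18 for UTOpiA over empty and 0.37 for UTOpiA over normal, against medians of 0.04, 0.00 and 0.05 for the TMM-scaled log2 fold changes. Ratios of TPM against normal livers are therefore, for the median gene, larger than the TMM-scaled fold changes. Hepatocyte markers were abundant in all 9 libraries, with albumin, transthyretin and 5 further transcripts summing to 141440 to 153240 TPM in normal, 20024 to 45950 TPM in empty and 21449 to 42748 TPM in UTOpiA livers. Replicate 2 of the empty group stood apart, with 3479 TPM summed over 8 NF-kB feedback genes against 389 and 505 TPM in the other empty livers, and results that rest on it are given with and without it. In whole liver RNA, fewer cells of a type and less RNA per cell cannot be told apart.

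Promoter sequences are shown for 4 members with different roles, *Edn1*, *Ednrb*, *Ace* and *Ptgs2*. Their transcripts were near 0 or low in normal livers and were all called higher with ACLF in the empty group. *Adm*, at a mean of 1.72 TPM in normal livers, was also called higher there and is not shown. The sequences are the 250 bases before the transcription start in the RefSeq annotation of GRCr8, each read 5′ to 3′ on the strand of its gene. Capitals mark the letters ACGTG, the core of a hypoxia response element, on either strand. They also mark TATAAA, a core promoter element.
Edn1, chr17:22666688-22666937, minus strand: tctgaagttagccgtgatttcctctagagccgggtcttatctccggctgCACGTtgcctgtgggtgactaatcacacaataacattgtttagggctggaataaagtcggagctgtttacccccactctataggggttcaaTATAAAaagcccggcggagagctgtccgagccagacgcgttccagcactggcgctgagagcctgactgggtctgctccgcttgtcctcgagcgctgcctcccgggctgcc
Ednrb, chr15:87086766-87087015, minus strand: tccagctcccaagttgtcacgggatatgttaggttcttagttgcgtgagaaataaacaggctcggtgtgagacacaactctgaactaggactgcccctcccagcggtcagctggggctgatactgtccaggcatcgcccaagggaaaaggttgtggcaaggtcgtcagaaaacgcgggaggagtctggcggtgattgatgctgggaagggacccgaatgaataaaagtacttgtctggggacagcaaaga
Ace, chr10:91409879-91410128, plus strand: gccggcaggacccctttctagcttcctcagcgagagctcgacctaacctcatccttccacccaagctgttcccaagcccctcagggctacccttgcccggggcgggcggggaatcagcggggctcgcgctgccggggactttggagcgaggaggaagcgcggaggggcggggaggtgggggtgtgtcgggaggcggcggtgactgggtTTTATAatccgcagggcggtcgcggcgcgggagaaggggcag
Ptgs2, chr13:64713813-64714062, plus strand: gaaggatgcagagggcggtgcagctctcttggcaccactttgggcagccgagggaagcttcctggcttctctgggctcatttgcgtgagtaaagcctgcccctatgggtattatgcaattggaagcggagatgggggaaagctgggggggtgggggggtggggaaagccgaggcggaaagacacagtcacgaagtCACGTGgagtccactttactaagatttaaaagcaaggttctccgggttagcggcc
The search covered both strands from 250 bases before to 50 bases after the start and also looked for TGACTCA (an AP-1 site) and the NF-kB consensus. RefSeq promoters were matched for 8 of the 10 members, all but *Nos2* and *Agt*. ACGTG was found in 2 of the 8, *Edn1* at bases -201 to -197 and *Ptgs2*, where overlapping matches on both strands spanned bases -55 to -50. A match to ACGTG was found in 19.3% of all 33469 promoters of this length. The letters TATAAA were found in 3 of the 8, *Edn1*, *Ace* on its opposite strand and *Agtr1a*, against 14.2% of all promoters. None of the 8 windows held the letters of the NF-kB consensus or of TGACTCA, which 7.51% and 4.63% of all promoters held. The *Ace* window was the richest of the 8 in G and C, at 72.3% with 34 CpG, and the *Edn1* window was at 57.3% with 22 CpG, where the medians over all promoters were 51.7% and 7 CpG. These matches describe the letters only and say nothing about binding.

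In ACLF livers of the empty group 7 of the 10 genes were called higher than in normal livers, and 0 were called lower. They were *Nos2*, *Edn1*, *Ednrb*, *Agt*, *Ace*, *Ptgs2* and *Adm*. Among all tested genes 31.8% were called in this comparison, 20.7% higher and 11.1% lower. Over the 10 genes the log2 fold change had a median of 2.71, also with *Nos2* set to its lower bound, beside 0.04 over all genes tested. In 8 of the 10 every empty liver lay above every normal liver in TPM, as did 53.4% of the genes tested. The number called was 7 with any one of the 9 libraries left out.

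Between the UTOpiA and empty groups edgeR called 0 of the 10 genes, and it called 0.0% of all genes tested. At an unadjusted p under 0.05 there were 2 of the 10, *Nos2* and *Ptgs2*, beside 10.3% of all genes. DESeq2 called 1 of the 10, *Nos2*, as lower, and it called 0.884% of all genes, 0.506% lower. The log2 fold change was below 0 for 9 of the 10, *Agtr1a* being the exception, with a median of -0.45, where 49.8% of all tested genes were below 0.

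Against normal livers, 4 of the 10 were called higher in the UTOpiA group and 0 lower. They were *Edn1*, *Ednrb*, *Agt* and *Ace*, and the background was 25.0% of all genes tested, with 18.2% higher and 6.81% lower. Over the 10 genes the log2 fold change had a median of 2.18, or 1.11 with *Nos2* set to its lower bound. Both ACLF groups were compared with the same 3 normal livers, so the counts against normal are not independent of each other.

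**Figure D1:**
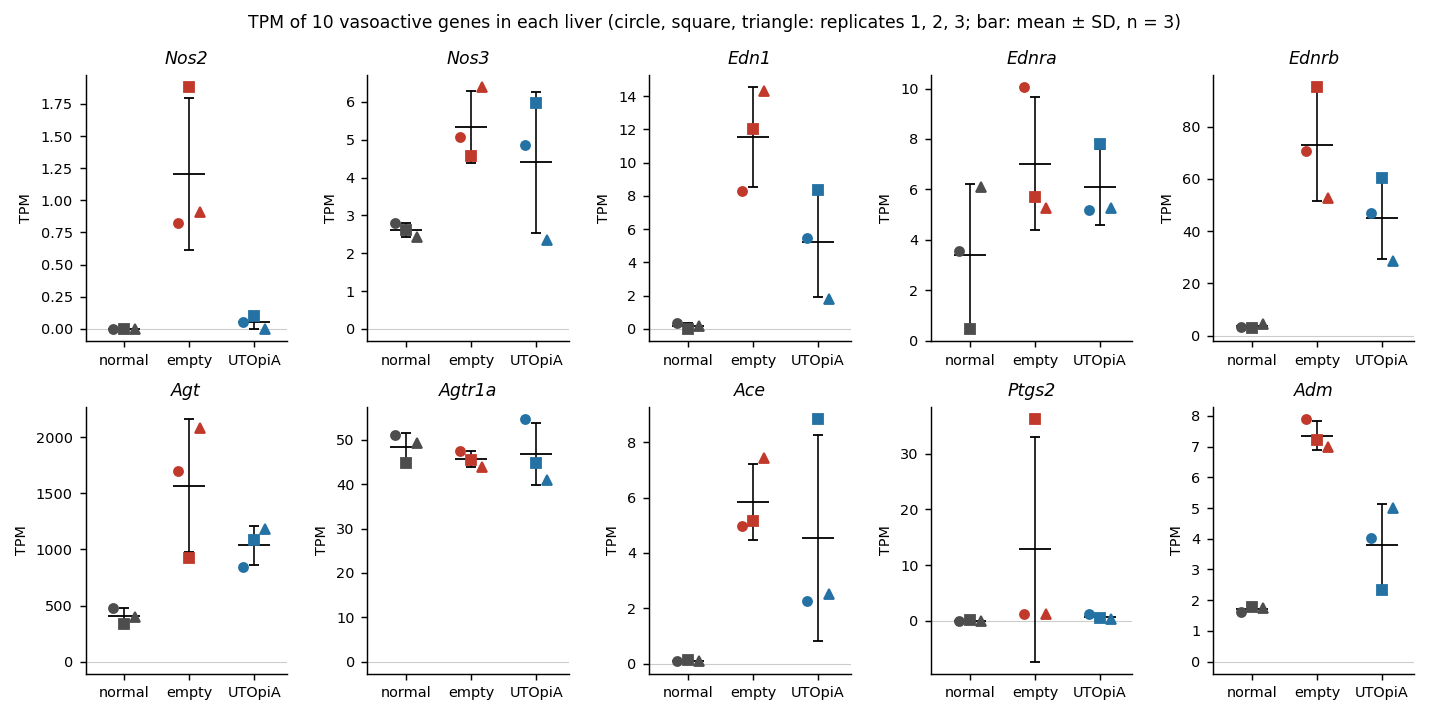
TPM of each gene (vertical axes, linear, separate per gene) in every liver of the normal, empty and UTOpiA groups (horizontal axes), with the mean and SD of 3 livers as bars. The empty livers sit above all normal livers for 8 genes, *Nos2* is near 0 in the normal and UTOpiA groups, and a single empty liver carries the *Ptgs2* mean at 36.1 TPM.

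Inducible nitric oxide synthase, *Nos2* (chr10:66189786-66313190), was seen almost only in the empty group. Its level was 0 TPM in all 3 normal livers, 0.826, 1.88 and 0.908 TPM in empty replicates 1 to 3, and 0.0534, 0.0973 and 0 TPM in UTOpiA replicates 1 to 3. The counts behind these values were 55, 116 and 57 in empty livers and 3, 6 and 0 in UTOpiA livers. The 3 empty livers lay above all the others, and the normal and UTOpiA groups overlapped at 0. Because normal livers gave 0 counts, the change is a lower bound, at least 46.6-fold higher in the empty group when normal livers are set to a floor of 3 counts over the group (edgeR adjusted p = 0.00120). Without empty replicate 2 this bound was 33.5-fold. The floor and the intervals given with count ratios cover counting error only.

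UTOpiA livers had 9 *Nos2* counts, 6 of them in replicate 2, against 228 in empty livers. The ratio was 0.0478, with a 95% interval of 0.0216 to 0.0924 from counting error. Without empty replicate 2 it was 0.0665 (0.0296 to 0.131). The edgeR log2 fold change was -4.40 ± 0.78 (SE) with an unadjusted p = 5.61e-04 and an adjusted p = 0.194, so this difference did not pass. DESeq2 gave -4.49 with an adjusted p = 6.17e-05. Over 18 alternatives the log2 fold change ran from -5.29 to -1.04 and the adjusted p from 6.17e-05 to 0.674. The call by DESeq2 was also made with each empty or UTOpiA library left out, in fits added after the values were seen, at adjusted p of 1.74e-04 to 0.00438. Against normal livers the UTOpiA group was at least 2.23-fold higher, and the adjusted p by edgeR was 0.0782. That bound rests on UTOpiA replicate 2, without which 3 counts were left, at the floor, and no bound is given. DESeq2 gave 0.0323 for that comparison, the edgeR fit without UTOpiA replicate 3 gave 0.0294, and the range over its alternatives was 0.0294 to 0.828.

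Endothelial nitric oxide synthase, *Nos3* (chr4:7320668-7342410), moved much less. It was at 2.81, 2.60 and 2.44 TPM in normal livers, 5.07, 4.56 and 6.40 TPM in empty livers and 4.86, 5.98 and 2.36 TPM in UTOpiA livers. The empty livers were above the normal ones, and UTOpiA replicate 3 lay just below the normal livers. On the TMM scale the difference between empty and normal was a log2 fold change of 0.50 ± 0.21 (SE, edgeR adjusted p = 0.0762), which did not pass. Neither UTOpiA against empty (-0.13 ± 0.21, adjusted p = 0.870) nor UTOpiA against normal (0.37 ± 0.21, adjusted p = 0.192) passed. The 9 endothelial markers found summed to 127 to 141 TPM in normal, 130 to 214 TPM in empty and 121 to 153 TPM in UTOpiA livers. Of these 9, 1 was called higher and 1 lower in the empty group (0 higher without normal replicate 3 or empty replicate 1, and 0 higher and 2 lower without empty replicate 2), none was at 0, and their part in the *Nos3* values was not tested.

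Of 20 other tested genes of nitric oxide metabolism and signalling, 3 were called higher and 3 lower in empty than in normal livers (median log2 fold change 0.02), near the shares over all tested genes, of which 20.7% were higher and 11.1% lower with a median of 0.04. The 3 that rose were *Ddah2*, which degrades an endogenous inhibitor of the synthases (3.34 ± 0.43, adjusted p = 3.64e-04), the arginine transporter *Slc7a1* (2.92 ± 0.62, adjusted p = 0.00475) and *Cav1*, whose caveolin binds the endothelial synthase (1.15 ± 0.38, adjusted p = 0.0306). The 3 that fell were *Ass1* (-1.50 ± 0.37, adjusted p = 0.00792), which rebuilds arginine from citrulline, the arginine transporter *Slc7a2* and *Spr*, an enzyme of tetrahydrobiopterin synthesis. The call of *Cav1* was lost without normal replicate 1, 2 or 3 or empty replicate 2 or 3 (0.91 to 1.25, adjusted p = 0.0603 to 0.101), that of *Slc7a2* without normal replicate 1 (-0.99) and that of *Spr* without normal replicate 3 (-0.94). *Gch1*, the first enzyme of that cofactor's synthesis, had a log2 fold change of -0.85, under the 2-fold limit, and was called without empty replicate 2 (-1.13). In the UTOpiA group 3 of the 20 were called higher and 1 lower than in normal livers, near the shares over all tested genes, 18.2% and 6.81%. Called higher were *Ddah2* (adjusted p = 5.84e-04), *Slc7a1* (2.00, adjusted p = 0.0302) and *Cav1* (1.15, adjusted p = 0.0367), and called lower was *Ass1* (-1.13, adjusted p = 0.0331). Without UTOpiA replicate 2 the last 3 of these calls were lost (adjusted p = 0.105 for *Slc7a1*, at 1.11, 0.146 for *Cav1*, at 0.68, and 0.0953 for *Ass1*), which left 1 higher and 0 lower. The counts were also 1 and 0 without normal replicate 2, 2 and 0 without normal replicate 1, 3 and 3 without UTOpiA replicate 1, and 3 and 2 without UTOpiA replicate 3. The *Cav1* call was also lost without normal replicate 1, 2 or 3 or empty replicate 3. That of *Ass1* was also lost without normal replicate 1, 2 or 3 or UTOpiA replicate 3, and that of *Slc7a1* without normal replicate 1 or 2. Of the 20, 0 differed between UTOpiA and empty by either edgeR or DESeq2, or at an unadjusted p under 0.05.

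The endothelin genes split by member. Endothelin-1, *Edn1* (chr17:22137324-22143324), was at 0.360, 0 and 0.167 TPM in normal livers, 8.30, 12.0 and 14.3 TPM in empty livers and 5.48, 8.34 and 1.80 TPM in UTOpiA livers. The normal livers, with 6 counts in all, lay below every ACLF liver, and the ACLF groups overlapped in TPM because UTOpiA replicate 2 just exceeded empty replicate 1. The rise over normal was a log2 fold change of 5.46 ± 0.70 in the empty group (edgeR adjusted p = 3.56e-04) and of 4.44 ± 0.70 in the UTOpiA group (adjusted p = 0.00143). These values depend on single normal livers at a few counts, and without normal replicate 1 they were 6.44 and 5.41, and without normal replicate 2 they were 4.88 and 3.85, with both calls kept.

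Between UTOpiA and empty the *Edn1* log2 fold change was -1.03 ± 0.49 (adjusted p = 0.510), which did not pass. On counts scaled by TMM to CPM the groups did not overlap, at 4.16, 5.40 and 1.73 in UTOpiA and 5.96, 8.26 and 8.98 in empty livers. Such separation downwards was found for 2 of the 10 genes, *Nos2* and *Edn1*, beside 5.97% of all genes tested. The UTOpiA livers differed more among themselves, with an SD of log2 CPM of 0.73 for *Edn1*, above that of 91.6% of tested genes in this group.

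The endothelin A receptor, *Ednra* (chr19:33928356-33991703), which mediates contraction, was at 3.57, 0.463 and 6.10 TPM in normal livers, 10.1, 5.71 and 5.28 TPM in empty livers and 5.18, 7.81 and 5.28 TPM in UTOpiA livers. All 3 groups overlapped, and normal replicate 2 was far below the other normal livers. No comparison passed, with log2 fold changes of 0.55 ± 0.68 for empty against normal (adjusted p = 0.533), -0.04 ± 0.67 for UTOpiA against empty (adjusted p = 0.990) and 0.51 ± 0.68 for UTOpiA against normal (adjusted p = 0.584). Without normal replicate 2 the comparisons with normal were 0.02 and -0.02. The SD among normal livers, 1.79 on the log2 scale, was above that of 99.8% of tested genes, where the SD was 0.58 among empty and 0.21 among UTOpiA livers.

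The endothelin B receptor, *Ednrb* (chr15:88006977-88036354), which clears endothelin-1 and on endothelium triggers nitric oxide release, rose most clearly. It was at 3.32, 2.77 and 4.66 TPM in normal livers, 70.7, 95.3 and 52.6 TPM in empty livers and 46.9, 60.3 and 28.4 TPM in UTOpiA livers. Every ACLF liver was above every normal liver, and the ACLF groups overlapped. The log2 fold change was 3.83 ± 0.31 in the empty group (adjusted p = 6.12e-05) and 3.29 ± 0.30 in the UTOpiA group (adjusted p = 1.38e-04). The difference between UTOpiA and empty, -0.55 ± 0.27 (adjusted p = 0.518), did not pass.

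Among the partners, *Ece1*, the enzyme that releases mature endothelin, did not pass in the empty group (-0.22 ± 0.22, adjusted p = 0.434). *Edn2* was listed at 0 in all 9 libraries, and *Edn3* averaged 0.0203 TPM in normal livers and was listed at 0 in the ACLF groups. Of 3 other tested genes of the pathway, 1, the converting enzyme *Ece2*, was called higher in both ACLF groups. Over all tested genes 20.7% were called higher in empty and 18.2% in UTOpiA livers. In the UTOpiA group the *Ece2* call was lost without any one of the normal livers or without UTOpiA replicate 1 or 2 (adjusted p = 0.0690 to 0.106). In the empty group 2 of the 3 were called higher in the fit without UTOpiA replicate 2. Of the 3, 0 differed between UTOpiA and empty by edgeR, by DESeq2 or at an unadjusted p under 0.05. Markers of stellate cells, fibroblasts and smooth muscle, cells in which *Ednra* is known, summed to 125 to 149 TPM in normal, 753 to 1154 TPM in empty and 646 to 1245 TPM in UTOpiA livers, with 8 of 11 called higher in each ACLF group than in normal. None of these 11 was at 0 in a group, and their part in the endothelin values was not tested.

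**Figure D2:**
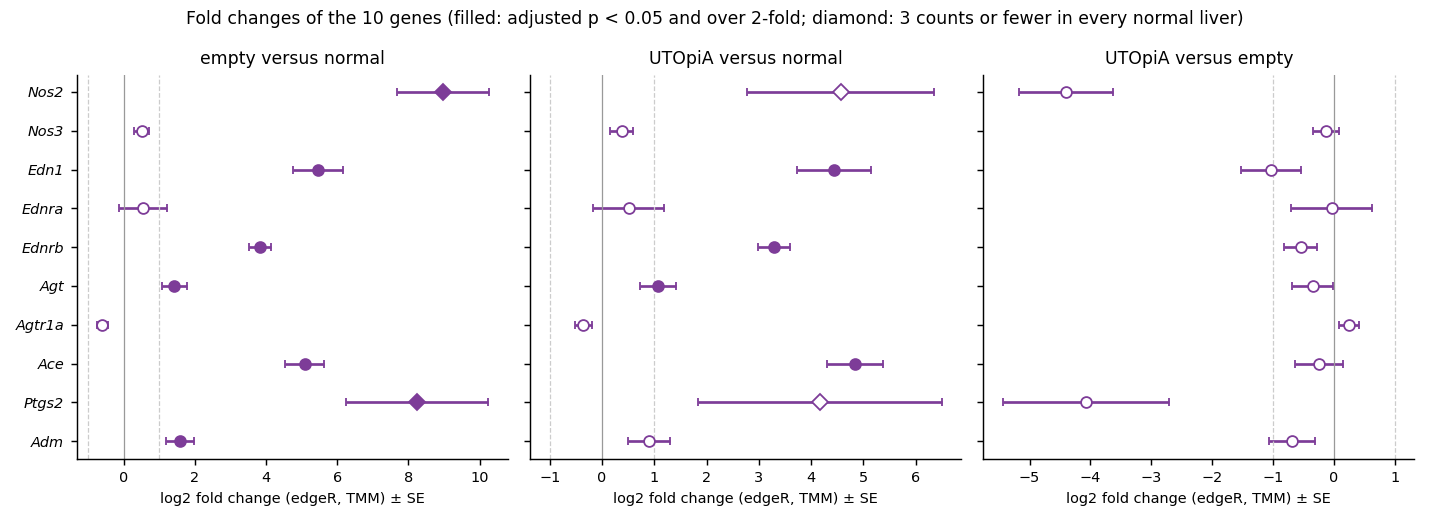
Log2 fold changes by edgeR with standard errors (horizontal axes) for the 10 genes in 3 comparisons (separate axis ranges, dashed lines at 2-fold). Filled points passed the adjusted p and the 2-fold limit, 7 against normal in the empty group, 4 against normal in the UTOpiA group and 0 between UTOpiA and empty, and diamonds mark fitted values against normal livers with at most 3 counts each.

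In the angiotensin system the precursor and the converting enzyme rose and the receptor did not. Angiotensinogen, *Agt* (chr19:57321640-57333433), was the most abundant of the 10 genes in every group. It was at 480, 335 and 400 TPM in normal livers, 1697, 927 and 2083 TPM in empty livers and 842, 1083 and 1182 TPM in UTOpiA livers. All ACLF livers were above all normal ones, and the ACLF groups overlapped. By mean TPM it ranked 290th of all genes in normal livers, 65th in the empty group and 105th in the UTOpiA group. The log2 fold change over normal was 1.42 ± 0.35 in the empty group (adjusted p = 0.00835).

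In the UTOpiA group the *Agt* rise over normal was 1.07 ± 0.35 (adjusted p = 0.0343), just over the 2-fold limit. This call was lost when normal replicate 1, 2 or 3 or UTOpiA replicate 3 was left out, with log2 fold changes of 1.21, 0.94, 1.07 and 0.77 and adjusted p of 0.0600, 0.123, 0.0955 and 0.108, and the adjusted p over all its alternatives ran from 0.00510 to 0.123. UTOpiA against empty was -0.35 ± 0.34 (adjusted p = 0.756). Of the 7 hepatocyte markers 5 were called lower than normal and 0 higher in empty livers, *Cyp2e1* (-0.87, adjusted p = 0.211) and *Asgr1* (-0.05, adjusted p = 0.884) did not pass, and their part in the *Agt* values was not tested.

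Angiotensin-converting enzyme, *Ace* (chr10:94170766-94187822), was at 0.0996, 0.156 and 0.0925 TPM in normal livers, 4.96, 5.14 and 7.43 TPM in empty livers and 2.28, 8.81 and 2.51 TPM in UTOpiA livers. Normal livers, with 3 to 5 counts each, were below every ACLF liver, and UTOpiA replicate 2 exceeded all empty livers while the other 2 UTOpiA livers were below them. The log2 fold change over normal was 5.08 ± 0.54 in the empty group (adjusted p = 1.57e-04) and 4.84 ± 0.54 in the UTOpiA group (adjusted p = 3.03e-04). The second value fell to 4.16 without UTOpiA replicate 2 and stayed called. UTOpiA against empty was -0.25 ± 0.39 (adjusted p = 0.864).

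The type 1a angiotensin II receptor, *Agtr1a* (chr17:35907108-35958077), was nearly level in TPM. It was at 51.1, 44.9 and 49.4 TPM in normal livers, 47.5, 45.5 and 43.9 TPM in empty livers and 54.6, 44.7 and 41.0 TPM in UTOpiA livers. The 3 groups overlapped in TPM. On the TMM scale, in which the normal group was separate, it was lower in the empty group by a log2 fold change of -0.60 ± 0.16 (adjusted p = 0.0130), which is less than 2-fold and so was not called. Over 15 alternatives that value ran from -0.68 to -0.08, the smallest sizes being those on TPM. UTOpiA against empty was 0.24 ± 0.16 (adjusted p = 0.641) and UTOpiA against normal -0.36 ± 0.16 (adjusted p = 0.105). Reads could be split between *Agtr1a* and its close copy *Agtr1b*, which was listed at 0 in all 9 libraries, as was the type 2 receptor *Agtr2*.

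Of 4 other tested genes of this system, beside shares of 20.7% higher and 11.1% lower over all tested genes, 0 were called higher and 1 lower in the empty group. It was *Enpep*, a peptidase that breaks down angiotensin II, which fell in both ACLF groups, from a mean of 33.7 TPM in normal to 8.96 TPM in empty and 11.6 TPM in UTOpiA livers (log2 fold changes -2.42 ± 0.29 and -1.82 ± 0.28, adjusted p = 2.74e-04 and 0.00134). The receptor *Mas1* was listed at 0 in the normal and UTOpiA groups and averaged 0.104 TPM in the empty group. For UTOpiA against empty 0 of these 4 were called by edgeR and 0 by DESeq2, and 1 had an unadjusted p under 0.05.

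Cyclooxygenase-2, *Ptgs2* (chr13:67351087-67359335), the inducible enzyme that starts prostanoid synthesis, was dominated by a single liver. It was at 0, 0.0807 and 0 TPM in normal livers, 1.15, 36.1 and 1.26 TPM in empty livers and 1.14, 0.521 and 0.372 TPM in UTOpiA livers. Counts were 50, 1456 and 52 in empty livers and 42, 21 and 15 in UTOpiA livers, against 3 in all normal livers together. Every ACLF liver was above every normal liver, and apart from empty replicate 2 the empty values were close to the highest UTOpiA value. The SD among empty livers, 2.71 on the log2 scale, exceeded that of 99.9% of tested genes.

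Over normal livers the *Ptgs2* counts of the empty group were 318 times as high, with a 95% counting interval of 109 to 1545, and 30.5 times as high (10.2 to 150) without empty replicate 2. The edgeR fit called the difference with all libraries (log2 fold change 8.25 ± 2.00, adjusted p = 0.00921) and without empty replicate 2 (4.81, adjusted p = 0.00255), while without normal replicate 2 the fitted value was 11.82 against normal livers at 0. Limma on log2(TPM + 1) did not call it (adjusted p = 0.0554, range over its alternatives 0.00255 to 0.0767), and DESeq2 gave no adjusted p. The UTOpiA counts were 19.3 times those of normal livers (6.37 to 95.6), with an edgeR adjusted p = 0.185, which was 0.00550 without empty replicate 2 and 0.00985 when only those 6 libraries were fitted, in a range of 0.00550 to 0.662. UTOpiA against empty was -4.08 ± 1.36 on the log2 scale, with an unadjusted p = 0.0157 and an adjusted p = 0.396. Without empty replicate 2 this fell to -0.63 (adjusted p = 0.713), a count ratio of 0.633 (0.465 to 0.858). The same empty liver held the highest sum of the 8 NF-kB response genes, all 8 of which were called above normal in empty livers. Their part in the *Ptgs2* values was not tested.

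Other prostanoid genes moved in both directions. Of 19 tested, 8 were called higher and 3 lower in empty than in normal livers (median log2 fold change 0.22), beside 20.7% and 11.1% of all genes. Those that rose included the thromboxane synthase *Tbxas1* (3.20 ± 0.32, adjusted p = 1.25e-04), the secreted phospholipase *Pla2g2a* (4.77 ± 1.21, adjusted p = 0.0112), and the prostaglandin E2 receptors *Ptger2* (4.35 ± 0.82, adjusted p = 0.00232) and *Ptger4* (3.00 ± 0.54, adjusted p = 0.00175), which raise cyclic AMP. *Pla2g2a* was at 0.736, 1.25 and 0 TPM in normal and 12.3, 4.99 and 64.8 TPM in empty livers. Its empty mean of 27.4 TPM was 8.64 TPM without empty replicate 3, where its log2 fold change was 3.24 (adjusted p = 0.0301). That fold change was 5.60 without normal replicate 2 and 4.18 without normal replicate 3. The prostaglandin D synthase *Ptgds* was at 0, 0 and 0.148 TPM in normal, 16.8, 11.9 and 31.3 TPM in empty and 7.27, 15.2 and 2.76 TPM in UTOpiA livers and was called in both ACLF groups. The 3 that fell were the prostaglandin F receptor *Ptgfr* (-3.46 ± 0.32, adjusted p = 9.31e-05), the prostaglandin E2 receptor *Ptger3* (-3.41 ± 0.51, adjusted p = 9.07e-04, or -4.12 without empty replicate 2) and the prostaglandin uptake carrier *Slco2a1* (-2.29 ± 0.50, adjusted p = 0.00502).

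The constitutive cyclooxygenase *Ptgs1* (-0.06 ± 0.37, adjusted p = 0.908) and the prostacyclin synthase *Ptgis* (-0.13 ± 0.37, adjusted p = 0.794) did not pass in the empty group. *Ptges*, the inducible prostaglandin E synthase, was below the count filter, with means of 0, 0.957 and 0.320 TPM in normal, empty and UTOpiA livers. In the UTOpiA group 7 of the 19 were called higher and 3 lower than in normal livers, beside 18.2% and 6.81% of all genes tested. With 1 library left out, the counts were 6 or 7 higher and 3 or 4 lower. The call of *Pla2g2a* (3.61, adjusted p = 0.0418) was lost without normal replicate 1, 2 or 3 or UTOpiA replicate 1 or 2 (adjusted p = 0.0722 to 0.110). Between UTOpiA and empty 0 of the 19 were called by edgeR or DESeq2 and 4 had an unadjusted p under 0.05, of which *Ptgfr*, *Ptger3* and *Slco2a1* were higher in UTOpiA livers, with log2 fold changes of 1.08, 1.12 and 1.18 and adjusted p of 0.348, 0.479 and 0.455. The other one, the prostanoid efflux transporter *Abcc4*, was lower (-0.60 ± 0.23, adjusted p = 0.440) and was called lower in UTOpiA than in normal livers (-1.35 ± 0.24, adjusted p = 0.00218).

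Adrenomedullin, *Adm* (chr1:175445088-175447259), a vasodilator peptide, was even within the normal and empty groups. It was at 1.62, 1.78 and 1.76 TPM in normal livers, 7.88, 7.20 and 6.98 TPM in empty livers and 4.03, 2.34 and 5.01 TPM in UTOpiA livers. In TPM the 3 groups did not overlap, with UTOpiA in between. Against normal the log2 fold change was 1.58 ± 0.40 in the empty group (adjusted p = 0.00941) and 0.89 ± 0.40 in the UTOpiA group (adjusted p = 0.103), which did not pass. It passed without UTOpiA replicate 2 (1.23, adjusted p = 0.0179) and by limma on log2(TPM + 0.1) (adjusted p = 0.0232), in a range over its alternatives of 0.0179 to 0.362. UTOpiA against empty was -0.68 ± 0.38 (adjusted p = 0.569), and on the TMM scale these groups overlapped, with UTOpiA replicate 3 at 4.81 CPM beside empty livers at 4.37 to 5.65. Separation below the empty group in TPM was found for 3 of the 10 genes, *Nos2*, *Ptgs2* and *Adm*, beside 8.62% of all genes tested.

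In the empty group the partner proteins of the adrenomedullin receptor were called higher and the receptor was not. Of 9 other tested genes of the adrenomedullin and calcitonin gene-related peptide (CGRP) systems, 7 were called higher and 0 lower in empty than in normal livers (median log2 fold change 2.01), and these 7 included the peptides *Adm2* and *Calcb* and the peptide-amidating enzyme *Pam* (1.06 ± 0.22, adjusted p = 0.00399, and 0.84 and not called without empty replicate 2). Over all tested genes 20.7% were called higher, with a median of 0.04. The receptor itself, *Calcrl*, did not pass (0.28 ± 0.14, adjusted p = 0.124), nor did *Crcp* (0.17 ± 0.21, adjusted p = 0.542). Its partner proteins, which set its ligand preference, did, with *Ramp1* at 2.16 ± 0.20 (adjusted p = 8.78e-05), *Ramp2* at 1.80 ± 0.26 (adjusted p = 6.52e-04) and *Ramp3* at 4.43 ± 1.00 (adjusted p = 0.00541). Normal livers were at 0, 0 and 0.380 TPM of *Ramp3*, so its fold change rests on 1 normal liver, without which it was fitted against 0 counts, and it was 3.70 without empty replicate 2 (adjusted p = 0.0129). The scavenger receptor *Ackr3* rose by 2.80 ± 0.71 (adjusted p = 0.0109), or 1.42 without empty replicate 2 (adjusted p = 0.00389), and *Adm2*, a related peptide, by 2.01 ± 0.65 (adjusted p = 0.0290). The *Adm2* call was lost without normal replicate 1 or 3 or empty replicate 1 or 3 (1.71 to 1.79, adjusted p = 0.0843 to 0.0976), and the value was 2.70 without normal replicate 2. *Calcb*, a CGRP gene, was at 0 counts in normal livers and at least 24.9-fold higher in the empty and 25.5-fold higher in the UTOpiA group, bounds that were 17.7-fold without empty replicate 2 and 15.9-fold without UTOpiA replicate 2.

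Against normal livers 3 of these 9 were called higher in the UTOpiA group, *Calcb*, *Ramp1* and *Ramp2*, and 0 lower, beside 18.2% and 6.81% of all genes tested. For UTOpiA against empty 0 were called by edgeR or DESeq2, and 2 had an unadjusted p under 0.05. They were *Ackr3* and *Ramp3*. *Ackr3* was at 6.84, 54.2 and 12.6 TPM in empty and 6.45, 7.33 and 3.59 TPM in UTOpiA livers, so empty replicate 2 carried the empty mean of 24.6 TPM, which was 9.74 TPM without it, and the groups overlapped. The log2 fold change was -1.93 ± 0.67 (edgeR adjusted p = 0.405) and -0.55 without that liver (adjusted p = 0.411), while DESeq2 called the difference in the fit without empty replicate 1 (-2.38, adjusted p = 0.00442). *Ramp3* was at 1.97, 7.64 and 3.31 TPM in empty and 0.682, 1.86 and 0.622 TPM in UTOpiA livers, all below the empty ones (-1.87 ± 0.77, adjusted p = 0.455), and at -1.14 without empty replicate 2 (adjusted p = 0.540).

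Genes of other vasoactive systems divided evenly, with 6 of 16 called higher and 6 lower in the empty group, beside 20.7% and 11.1% of all genes. Kininogen, *Kng1*, the precursor of the kinins, averaged 720 TPM in normal, 7103 TPM in empty and 10926 TPM in UTOpiA livers, and every ACLF liver was above every normal liver (2.80 ± 0.48 and 3.66 ± 0.50, adjusted p = 0.00148 and 7.32e-04). The empty livers, at 4293 to 11094 TPM, overlapped the UTOpiA livers, at 7715 to 14141 TPM, and the difference between them did not pass (0.86 ± 0.46, adjusted p = 0.549). The rat has close kininogen copies between which counting could split reads, so the *Kng1* values are uncertain. The bradykinin B2 receptor *Bdkrb2*, which relaxes vessels through endothelium, was at 0 counts in normal livers and at least 52.7-fold higher in the empty group and 37.6-fold higher in the UTOpiA group, or 34.4-fold without empty replicate 2 and 27.2-fold without UTOpiA replicate 2. Heme oxygenase-1, *Hmox1*, which releases carbon monoxide, rose from a mean of 23.6 TPM to 356 and 256 TPM (3.40 ± 0.54 and 3.26 ± 0.53, adjusted p = 0.00113 and 0.00190). Without UTOpiA replicate 3, at 447 TPM, the *Hmox1* mean of the UTOpiA group was 161 TPM and its log2 fold change over normal 2.31 (adjusted p = 3.31e-04). *Sphk1*, which makes sphingosine-1-phosphate, rose in both (4.93 ± 0.74 and 4.44 ± 0.74, adjusted p = 7.91e-04 and 0.00189), by 5.76 and 5.27 without normal replicate 1 and by 3.84 in the UTOpiA group without its replicate 2. Among those that fell in the empty group were the vasopressin receptor *Avpr1a* (-2.69 ± 0.41, adjusted p = 0.00100), the alpha-1B adrenoceptor *Adra1b* (-2.32 ± 0.34, adjusted p = 8.03e-04) and the enzymes of hydrogen sulfide synthesis *Cth* (-2.74 ± 0.53, adjusted p = 0.00310) and *Cbs* (-1.88 ± 0.41, adjusted p = 0.00489).

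*Cth* was at 371, 335 and 248 TPM in normal, 45.8, 99.1 and 60.3 TPM in empty and 518, 187 and 111 TPM in UTOpiA livers. Every UTOpiA liver was above every empty liver, but UTOpiA replicate 1 carried the UTOpiA mean of 272 TPM, which was 149 TPM without it, and the other 2 were below all normal livers. UTOpiA against empty was 2.16 ± 0.52 on the log2 scale by edgeR (adjusted p = 0.283) and 2.14 by DESeq2 (adjusted p = 0.00333), so it was called by DESeq2 alone. Without UTOpiA replicate 1 it was 1.29 by edgeR (adjusted p = 0.674) and 1.28 by DESeq2 (adjusted p = 0.0540), which ended that call, and UTOpiA against normal went from -0.57 (edgeR adjusted p = 0.390) to -1.44 (adjusted p = 0.0140). *Adra1b* (0.91 ± 0.33, adjusted p = 0.425) was called in the edgeR fit without UTOpiA replicate 2 (1.26, adjusted p = 0.0376). In the contractile apparatus 2 of 12 tested genes were called higher in each ACLF group and 0 lower. This was no more than the shares over all tested genes, 20.7% higher and 11.1% lower in empty and 18.2% and 6.81% in UTOpiA livers. The 2 were *Acta2* (3.25 ± 0.59 in the empty group, adjusted p = 0.00231, or 4.07 without normal replicate 2) and *Tagln* (2.57 ± 0.59, adjusted p = 0.00735, or 1.85 without empty replicate 2). Both are also among the 11 stellate cell, fibroblast and smooth muscle markers. In the UTOpiA group *Myh11*, the smooth muscle myosin heavy chain (1.67, adjusted p = 0.0878), and *Cnn1*, calponin (2.48, adjusted p = 0.0568), were not called with all libraries but were called without normal replicate 2 (2.55 and 4.03, adjusted p = 0.0381 and 0.0384), which made 4 of 12, and *Cnn1* also without empty replicate 2 (adjusted p = 0.0451).

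Over all 7 lists, 83 of 104 genes were tested, of which 27 were called higher and 13 lower than normal in empty livers, and 22 higher and 8 lower than normal in UTOpiA livers. Among all genes 20.7% were higher and 11.1% lower in empty livers, and 18.2% higher and 6.81% lower in UTOpiA livers. On log2(TPM + 1), limma called 34 higher and 10 lower in the empty group, where it called 24% of all genes higher and 5.18% lower, so higher genes were 77.3% of its calls in the lists and 82.3% of its calls over all genes. Between UTOpiA and empty edgeR called 0 of the 83, with 12 at an unadjusted p under 0.05, and DESeq2 called 1.

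**Figure D3:**
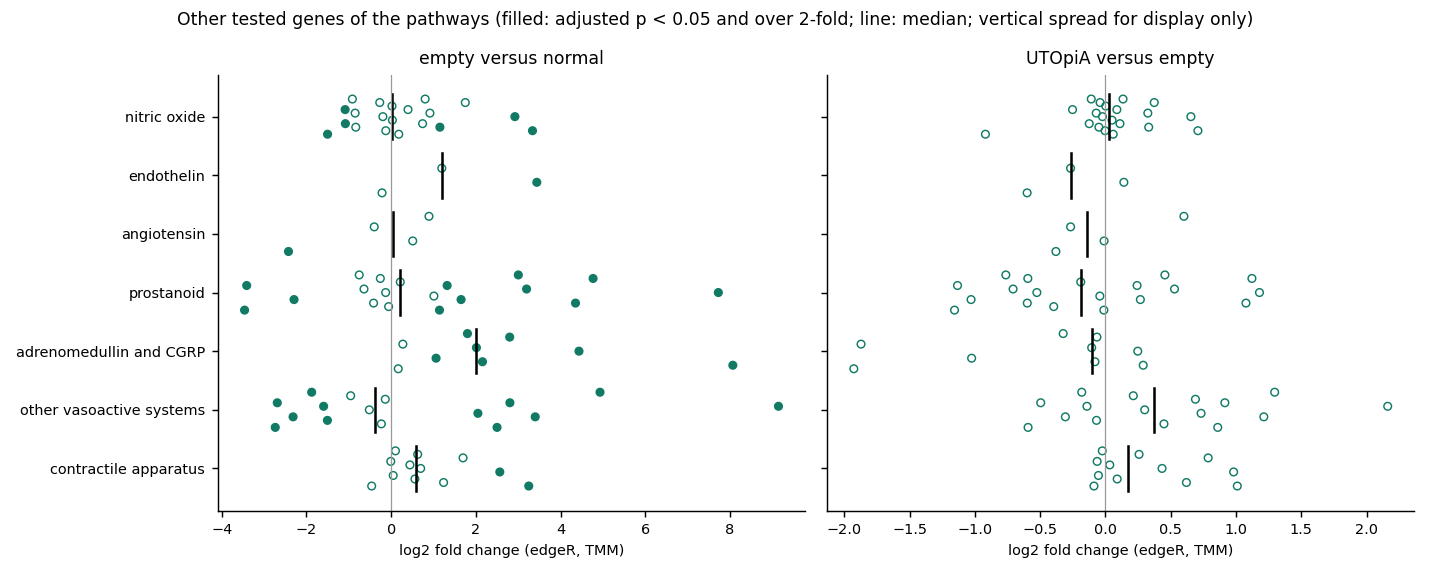
Log2 fold changes by edgeR (horizontal axes) of the 83 tested genes in 7 lists, for empty against normal and for UTOpiA against empty, with medians as black lines and called genes filled. Against normal, called genes lie on both sides of 0 in the nitric oxide and prostanoid lists and above 0 in the adrenomedullin list, and no gene is filled for UTOpiA against empty.

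Ratios between 3 pairs of genes were taken in each liver as log2 of (TPM + 0.1), which removes differences between libraries in scaling. The *Ednra* to *Ednrb* ratio was 0.10, -2.35 and 0.38 in normal livers, -2.80, -4.04 and -3.29 in empty livers and -3.15, -2.93 and -2.41 in UTOpiA livers. All ACLF livers were below all normal livers, so the balance of these transcripts was on the side of the B receptor, although normal replicate 2 came close to the UTOpiA range. The mean difference was -2.75 for empty and -2.21 for UTOpiA against normal (two-sided exact permutation p = 0.1 for each), and 0.55 for UTOpiA against empty (p = 0.3). With 3 livers in each group this test cannot give a p below 0.1, and adjusted over 9 comparisons none of the 9 was below 0.129.

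The *Ptgs2* to *Ptgs1* ratio averaged -6.03 ± 0.36 (SD, n = 3) in normal, -1.40 ± 2.34 in empty and -4.16 ± 0.23 in UTOpiA livers, and the 3 groups did not overlap (exact permutation p = 0.1 for each comparison). Only empty replicate 2, at 1.28, had more *Ptgs2* than *Ptgs1*. That liver carried the empty mean, as empty replicates 1 and 3 were at -3.06 and -2.42. The *Nos2* to *Nos3* ratio averaged -2.13 ± 0.79 in empty livers, above -4.76 ± 0.10 in normal and -4.86 ± 0.21 in UTOpiA livers (exact permutation p = 0.1 for empty against normal and for UTOpiA against empty), where *Nos2* at or near 0 leaves the pseudocount to set the ratio. With 1 TPM added in its place the difference between empty and normal shrank from 2.63 to 0.31 (exact permutation p = 0.5), and that of the *Ptgs2* pair between UTOpiA and normal from 1.87 to 0.06 (p = 0.9).

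**Figure D4:**
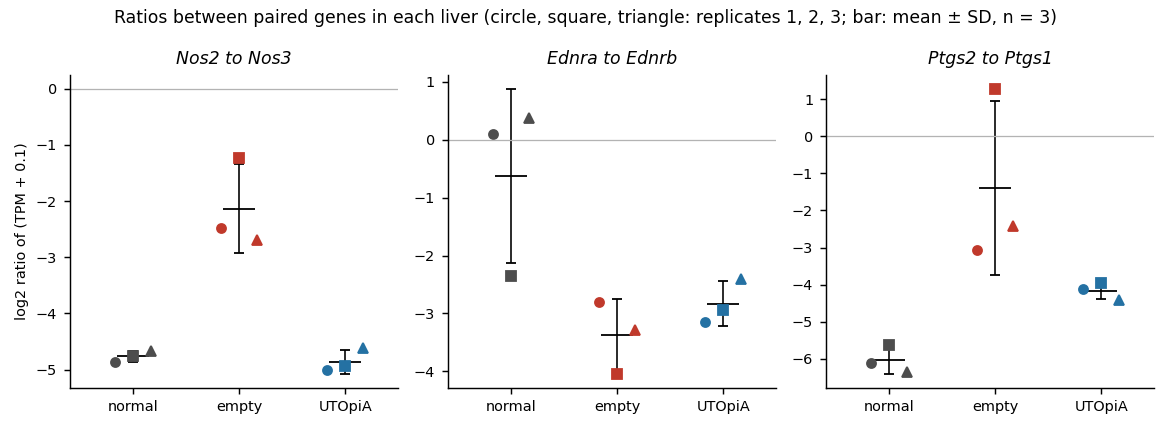
Log2 ratios of (TPM + 0.1) between paired genes (vertical axes, separate per pair) in every liver of the 3 groups, with the mean and SD of 3 livers as bars. The *Ednra* to *Ednrb* ratio is lower in all ACLF livers than in normal livers, and only empty replicate 2 lies above 0 for *Ptgs2* to *Ptgs1*.

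Across groups the order of the 10 genes by mean TPM changed below *Agt*. In normal livers *Agtr1a* came second at 48.4 ± 3.20 TPM (SD, n = 3) and the other 8 were under 4 TPM, where *Ednrb* at 3.58 ± 0.97, *Ednra* at 3.38 ± 2.82 and *Nos3* at 2.62 ± 0.19 TPM did not differ beyond their spread. In the empty group *Ednrb* at 72.9 ± 21.5 TPM came second, ahead of *Agtr1a* at 45.6 ± 1.79 TPM. *Ptgs2* at 12.9 ± 20.2, *Edn1* at 11.5 ± 3.03, *Adm* at 7.35 ± 0.47, *Ednra* at 7.02 ± 2.65, *Ace* at 5.84 ± 1.38 and *Nos3* at 5.34 ± 0.95 TPM followed. Each of these overlapped its neighbour over the livers except that *Edn1* was above *Adm* in all 3, and *Nos2* was last at 1.21 ± 0.59 TPM. The place of *Ptgs2* rests on empty replicate 2, and without that liver the means were 1.21 TPM for *Ptgs2* and 0.867 TPM for *Nos2*, the lowest of the 10. In the UTOpiA group *Agtr1a* at 46.8 ± 7.04 and *Ednrb* at 45.2 ± 16.0 TPM were side by side, and *Ptgs2* at 0.679 ± 0.409 and *Nos2* at 0.0503 ± 0.0488 TPM were at the bottom.

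For each gene the protein-coding gene with the most similar pattern was found by Pearson r of log2 CPM over the 9 livers, which share the differences between groups. *Nos2* was nearest to the chemokine *Ccl3* (r = 0.98), at means of 1.93, 18.3 and 3.98 TPM in normal, empty and UTOpiA livers. *Ptgs2* was nearest to the immediate early gene *Egr2* (r = 0.98), at 0, 3.54 and 0.480 TPM. *Edn1* was nearest to *Tnfrsf14* (r = 0.99), a receptor of the tumour necrosis factor family, *Ednrb* to *Zdhhc8* (r = 0.99) and *Ace* to *Unc5b* (r = 0.996), a netrin receptor. *Agt* was nearest to *Derl3* (r = 0.996), a gene of protein degradation from the endoplasmic reticulum, at 0.359, 11.4 and 5.46 TPM, and *Agtr1a* to the pyruvate carboxylase gene *Pc* (r = 0.99), at 212, 116 and 155 TPM. For *Nos3*, *Ednra* and *Adm* the nearest genes were *Adgre5*, *Churc1* and *Grina* (r = 0.98, 0.94 and 0.96).

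Markers of infiltrating and ductal cells differed between the groups together with these genes. Neutrophil markers summed to 2.15 to 5.24 TPM in normal, 178 to 1091 TPM in empty and 172 to 501 TPM in UTOpiA livers, with 4 of 7 tested and all 4 called higher in each ACLF group, while *Mpo*, *Elane*, *Cxcr2* and *Fpr1* were at 0 in normal livers. Macrophage markers summed to 195 to 232, 376 to 667 and 262 to 538 TPM, with 6 of 7 called above normal in empty and 5 of 7 in UTOpiA livers and none at 0. Cholangiocyte markers summed to 14.2 to 22.5, 175 to 365 and 88.3 to 289 TPM, with 5 of 5 called higher in each ACLF group and none at 0. T cell markers summed to 10.9 to 14.5, 52.5 to 90.5 and 26.6 to 90.9 TPM, of which *Cd4* made up most, at means of 11.9, 59.1 and 47.4 TPM. Of the 4 markers 3 were called higher in each ACLF group (1 of 4 in UTOpiA without normal replicate 2), and *Cd3d* was at 0 in normal livers. Mast cell markers summed to 0.375 to 1.07, 2.29 to 5.70 and 0.539 to 2.70 TPM, with 1 of 4 tested and not called in either ACLF group, although it was called in empty livers in 6 of the 9 fits that left out a library, and *Tpsab1* at 0 in normal livers. B cell markers summed to 0.402 to 1.79, 0.216 to 2.93 and 1.33 to 1.48 TPM, with 1 of 3 tested and not called. Erythroid markers summed to 91.6 to 260, 2173 to 3205 and 721 to 1179 TPM, with 3 of 3 called higher in each ACLF group, none at 0, and every UTOpiA liver below every empty liver. The NF-kB response genes summed to 56.5 to 81.0, 389 to 3479 and 203 to 356 TPM, so that the lowest empty liver was above the highest UTOpiA liver. Among the 8, *Cxcl1* had means of 0.904, 624 and 20.5 TPM. Between UTOpiA and empty edgeR called 0 of these 8 and DESeq2 called 1, and 4 had an unadjusted p under 0.05. The hypoxia response genes summed to 1549 to 1740, 1012 to 1746 and 907 to 1493 TPM, of which *Ldha* made up most, at means of 1390, 1178 and 926 TPM. In this sum every UTOpiA liver was below every normal liver, and the empty livers overlapped both groups. Of the 10 hypoxia genes 5 were called higher than normal in each ACLF group, *Slc2a1*, *Egln3*, *Ankrd37*, *Ndrg1* and *Hk2*, with log2 fold changes of 2.55 to 4.06 in empty and 1.76 to 3.70 in UTOpiA livers (*Egln3* 2.89 and *Ankrd37* 2.18 without UTOpiA replicate 3), 1 was called lower in each, *Pdk1* (-2.43 and -2.24), and none was at 0. Between UTOpiA and empty 0 of the 10 were called by edgeR or DESeq2, and 2 had an unadjusted p under 0.05, *Slc2a1* (-0.79) and *Ndrg1* (-0.97). The part of these cells and responses in the values of the 10 genes was not tested.

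**Figure D5:**
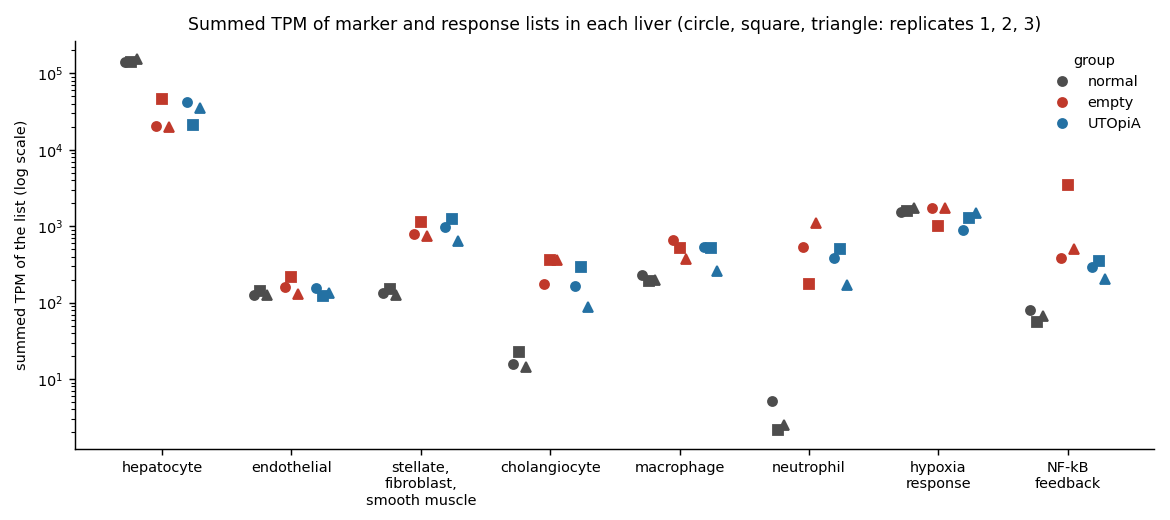
Summed TPM of 8 marker and response lists (horizontal axis) in every liver, on a logarithmic vertical axis, coloured by group. Hepatocyte markers are lower and stellate cell, cholangiocyte and neutrophil markers higher in all ACLF livers than in normal livers, and empty replicate 2 has the highest NF-kB feedback sum at 3479 TPM.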

How the data were processed

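The series held bulk liver RNA-seq of 9 libraries in 3 groups, assigned by their labels. The authors deposited whole-number counts per gene and TPM for 32883 rat genes. The submitters' processing notes name Trimmomatic, HISAT2, featureCounts and the rat build rn6, while the paper's methods name Cutadapt and a mouse build, and whether reads were counted by strand is not given in the sources used here, so overlapping and antisense genes could share reads. Every row of the table has a gene identifier, and 0 value columns were left unassigned.

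Counts were filtered with filterByExpr, scaled by TMM and fitted with edgeR 4.0.16 in R 4.3.3, with all 9 libraries, one mean per group and a robust quasi-likelihood fit. SE is the log2 fold change over the square root of F. TPM served for levels and, with 0.1 added, for ratios between genes. Depth was 14241172 to 17321677 counts per library. P-values measure the spread between these libraries only. Replicates differed by more than sampling noise. The scripts were tested on simulated data.

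The 10 genes, the 7 pathway lists and the marker lists were chosen with earlier results of these data known. Of the list genes 181 matched by symbol, 7 by RefSeq gene ID and 1 (*Pecam1*) not. Named were the 10 genes, fixed partners, and up to 4 further genes per list and direction with the largest called change between empty and normal, a mean of at least 1 TPM and groups without overlap in TPM, and *Ece2* was named after its values were seen. Some list genes and a gene ratio are not reported here. Alternatives were DESeq2 1.42.0, limma 3.58.1 on log2(TPM + 1) or log2(TPM + 0.1) with or without a minimum mean of 1 TPM, median-of-ratios scaling, no count filter or 10 counts in every library, no fold threshold, 6 libraries only, a replicate block and each library left out, and for ratios 1 TPM added. DESeq2 with an ACLF library left out, and fits of *Ackr3*, *Ramp3*, *Cth*, *Hmox1*, *Ptgds* and, against normal, all list genes without each library, were added after seeing the data.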

Additional observations from a re-analysis of the deposited data

How the results depend on the processing

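Requiring 10 counts in every library, which left 6 of the 10 genes and 64 of the 83 pathway genes for testing, lowered the number of the 10 called from 7 to 3 for empty against normal and from 4 to 2 for UTOpiA against normal, and that of pathway genes from 40 to 26 and from 30 to 19. Calls over all genes fell as well. For empty against normal they went from 2916 higher and 1560 lower to 1644 and 1179. For UTOpiA against normal they went from 2563 and 959 to 1384 and 701. Between UTOpiA and empty, DESeq2 called 1 of the 10 and 1 pathway gene where edgeR called 0, and it called 1 of the 10 with each ACLF library left out (these fits were added after seeing the data). With one library left out in turn, edgeR called 7 to 7 of the 10 for empty against normal, 0 to 0 for UTOpiA against empty and 3 to 5 for UTOpiA against normal, and 36 to 42, 0 to 1 (1 without UTOpiA replicate 2) and 25 to 34 pathway genes. Some uncalled log2 fold changes changed sign. For UTOpiA against empty, *Nos3* ran from -0.27 to 0.074 with one library left out (positive without UTOpiA replicate 3, with DESeq2 0.061), *Ednra* from -0.25 to 0.38 (positive without empty replicate 1, with DESeq2 0.35, and without UTOpiA replicate 1 at 0.060, with DESeq2 0.053) and *Ace* from -0.92 to 0.045 (positive without UTOpiA replicate 1, with DESeq2 0.043), and *Ednra* was 0.026 with the replicate block. For UTOpiA against normal *Ednra* ran from -0.017 to 1.26, negative without normal replicate 2. *Hmox1* for UTOpiA against empty ran from -1.09 to 0.21 (0.11 and 0.21 without UTOpiA replicate 1 and 2, with DESeq2 0.098 and 0.18), and without UTOpiA replicate 3 DESeq2 called it (-1.10), as it did *Ptgds* without UTOpiA replicate 2 (-1.73). The cause was not tested, beyond the fewer genes or samples of these fits. The replicate numbers did not pair the libraries, since the deviations of same-numbered livers correlated at -0.20 to 0.08, and with the replicate block edgeR called 7, 0 and 4 of the 10 genes and 40, 0 and 28 pathway genes for empty against normal, UTOpiA against empty and UTOpiA against normal. Depth limited *Nos2*, *Ptgs2*, *Edn1* and *Ace* in normal livers, where 0 to 5 counts were seen per library.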
